A study of Mus musculus with 12 samples.

Results

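The Slc25a genes encode the mitochondrial carriers, and their RNA was measured in muscle of mice that differed in GPR120, the receptor for long-chain fatty acids made from Ffar4, and in diet. Members were all genes whose single annotated symbol is Slc25a followed by a number, each taken at its brightest probe set. The array held 44 such genes among 18193 genes with a single symbol. Of the 44, 38 passed the filter on signal and were tested among 11345 genes. The other 6, Slc25a13, Slc25a18, Slc25a31, Slc25a41, Slc25a48 and Slc25a54, averaged 0.93 to 3.32 on the log2 scale and were too dim to test, so nothing is said of their changes. Slc25a14, at 3.80, was the dimmest tested member, just over the filter's 3.78.

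Each of the 4 groups held 3 mice of 16 weeks, all of mixed 129/Sv and C57BL/6 background. GPR120 KO mice ate a high fat diet (KO HFD) or a normal diet (KO ND), and wild-type mice ate the same diets (WT HFD and WT ND). The sources used here give no allele, sex, muscle site or time on diet. Each group carries mouse numbers from a range of its own, so litter or cohort and group cannot be told apart. The Ffar4 probe set could not check the genotype labels: it averaged 2.31 ± 1.18 in KO HFD, 2.48 ± 1.89 in KO ND, 1.41 ± 0.93 in WT HFD and 0.23 ± 1.86 in WT ND (log2 signal, SD, n = 3 each), all under the filter. All 10 skeletal muscle markers on the list (Acta1, Ckm, Mylpf and others) passed the filter and none was called by limma in any comparison, with 4 at an unadjusted p under 0.05 in the averaged diet effect and 1 in WT. In whole muscle RNA, fewer cells of a type and less RNA per cell cannot be told apart.

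Mitochondrial carriers sit in the inner membrane, which is closed to most charged molecules, and each exchanges or imports a set of substrates: acylcarnitines for fat oxidation, ADP for ATP, phosphate, di- and tricarboxylates, amino acids, nucleotides, coenzymes, glutathione or iron. In muscle, the ADP/ATP carrier Slc25a4 and the phosphate carrier Slc25a3 serve oxidative phosphorylation. Slc25a20 brings long-chain acylcarnitines to the enzymes of fat oxidation in the matrix.

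The promoters are shown of 3 members called for diet both in WT and in the averaged effect by the tests below. Slc25a20 and Slc25a39 were higher and Slc25a33 was lower on the high fat diet. Slc25a10 and Slc25a15, also called for diet, were searched but are not printed. Each sequence is the 250 bases before an annotated start, from RefSeq on GRCm38.p6, read 5′ to 3′ on the gene's strand. Capitals mark matches to the motifs searched. The windows are chr9:108661886-108662135 on the plus strand for Slc25a20, chr11:102407518-102407767 on the minus strand for Slc25a39, and chr4:149774268-149774517 on the minus strand for Slc25a33. The Slc25a39 window lies inside the gene's full annotated span, which holds a start further upstream.
Slc25a20: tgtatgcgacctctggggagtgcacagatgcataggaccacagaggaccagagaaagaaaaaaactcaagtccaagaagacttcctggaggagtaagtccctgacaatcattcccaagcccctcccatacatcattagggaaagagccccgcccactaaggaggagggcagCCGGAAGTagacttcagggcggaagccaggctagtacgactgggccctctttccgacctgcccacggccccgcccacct
Slc25a39: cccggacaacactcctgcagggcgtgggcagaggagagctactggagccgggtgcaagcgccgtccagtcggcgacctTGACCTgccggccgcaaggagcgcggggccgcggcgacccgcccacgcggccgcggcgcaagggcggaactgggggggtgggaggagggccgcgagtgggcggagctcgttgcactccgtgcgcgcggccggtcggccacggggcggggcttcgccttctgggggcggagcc
Slc25a33: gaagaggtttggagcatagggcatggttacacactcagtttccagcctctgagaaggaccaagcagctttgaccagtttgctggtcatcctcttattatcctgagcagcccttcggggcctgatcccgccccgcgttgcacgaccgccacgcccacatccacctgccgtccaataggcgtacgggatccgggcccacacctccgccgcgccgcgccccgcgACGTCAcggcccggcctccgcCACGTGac

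The Slc25a20 promoter held CCGGAAGT, the site bound by ETS factors such as GABP, 79 bases before the start. The Slc25a39 promoter held the nuclear receptor core site AGGTCA on the opposite strand, printed there as TGACCT, 172 bases before the start. The Slc25a33 promoter held ACGTCA, the core of the cyclic AMP response element, 29 bases before the start, and the E-box CACGTG 8 bases before it. The 3 printed promoters shared no motif of the 9 searched. Of those not printed, the Slc25a10 window held no match. A Slc25a15 window held CACGTG 77 bases before its start, a motif also in the Slc25a33 window, and another Slc25a15 window held no match. Both strands were searched in 32851 promoters and in the 43 promoters found for 34 of the members.

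Among the members' promoters, 2.33% held CCGGAAGT, 9.3% AGGTCA, 9.3% ACGTCA and 18.6% CACGTG. Among all promoters the shares were 2.88%, 14%, 6.47% and 6.02% in the same order. The other motifs were TCAAGGTCA (estrogen-related receptor; it contains AGGTCA), TGACGTCA (the full cyclic AMP response element; it contains ACGTCA), the palindrome of nuclear respiratory factor 1, TCACNCCAC (sterol response element) and GTAAACA (FoxO). They were in 0, 2, 0, 1 and 0 of the members' promoters. A match describes the letters in the window and is no evidence of binding.

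Across the family, diet moved few carriers past the threshold, an adjusted p of 0.05 over all 11345 genes. In the averaged diet effect (HFD minus ND over both genotypes), 3 of the 38 members were higher, Slc25a20, Slc25a39 and Slc25a15, and 1, Slc25a33, was lower. That is 10.5% of the members, beside 13.7% of all genes tested (7.49% higher and 6.19% lower). In KO mice 1 member, Slc25a10, was higher on the high fat diet and none was lower, 2.63% beside 4.54% of all genes (2.66% higher and 1.88% lower). In WT mice 2 members were higher (Slc25a20 and Slc25a39) and 1 was lower (Slc25a33), 7.89% beside 6.06% of all genes (3.07% higher and 2.99% lower).

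The family's shares of called genes were therefore near those of the whole array. The median diet difference was 0.10 in KO and 0.12 in WT (log2), against 0.05 and 0.04 over all genes. In KO, 7 members had all 3 HFD mice above all 3 ND mice and 2 had them all below, beside 26.5% of all genes without overlap (16.3% above and 10.2% below). In WT the counts were 9 and 3, beside 26.7% of all genes (15.7% above and 11.1% below). The 95% interval of the averaged diet difference lay within 1 log2 unit of zero for 34 of the 38 members and within 0.5 for 18.

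**Figure D1:**
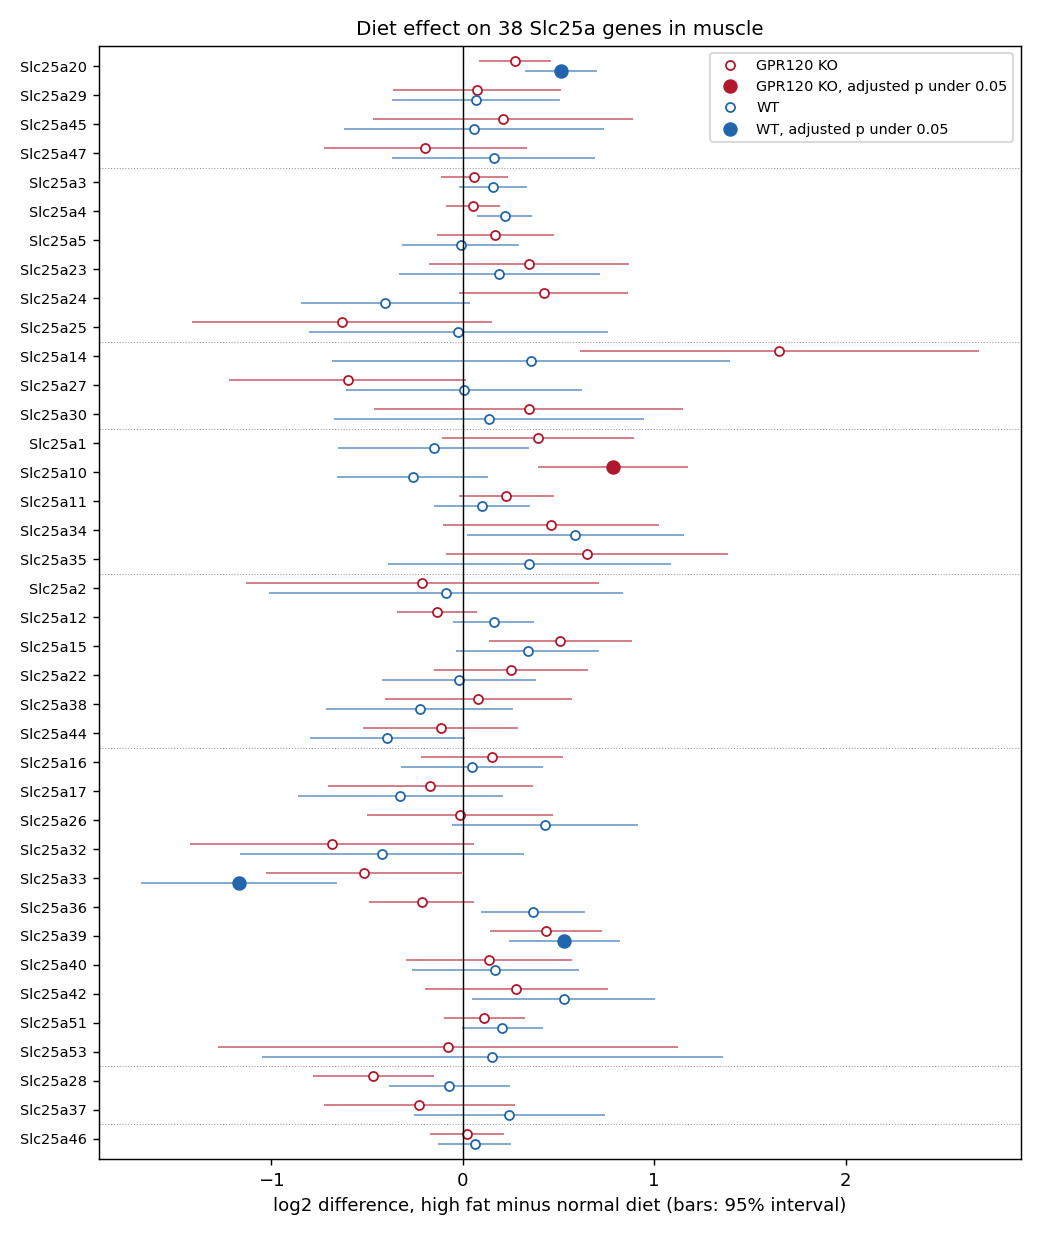
Log2 difference HFD minus ND with its 95% confidence interval in KO and in WT mice for the 38 tested Slc25a members, in order of role, with filled points for an adjusted p under 0.05 (linear model over 12 arrays, 3 mice per group). In KO only Slc25a10 (0.79) is filled, and in WT Slc25a20 (0.51) and Slc25a39 (0.53) lie above zero and Slc25a33 (-1.17) below it.

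Among carriers of fuel import, Slc25a20 (probe set mean 10.63) was higher on the high fat diet. Its log2 signals were 10.94, 10.72 and 10.99 in KO HFD, 10.59, 10.56 and 10.67 in KO ND, 10.67, 10.85 and 10.81 in WT HFD, and 10.25, 10.26 and 10.28 in WT ND. Within each genotype all 3 HFD mice were above all 3 ND mice, and the 3 WT ND mice were the lowest of all 12. The difference HFD minus ND was 0.27 ± 0.09 in KO (SE) and missed the threshold (adjusted p = 0.0918). In WT it was 0.51 ± 0.09 (adjusted p = 0.00578), which is 1.43-fold. Averaged over genotypes it was 0.39 ± 0.06 (adjusted p = 0.00154), 1.31-fold.

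The diet effects of Slc25a20 in KO and WT differed by -0.24 ± 0.12 on the log2 scale, with an adjusted p of 0.519. On the normal diet KO exceeded WT by 0.34 ± 0.09 without passing (adjusted p = 0.129); this comparison shares the WT ND mice with the WT diet effect. The gene's second probe set gave 0.48 in WT (adjusted p = 0.0253 over all probe sets) and 0.41 in the averaged effect (adjusted p = 0.00497). Of the other 3 tested members of this class, Slc25a29, Slc25a45 and Slc25a47, none was called. Slc25a29, a carrier of basic amino acids, differed by 0.41 ± 0.14 between genotypes averaged over diets (adjusted p = 0.175).

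Of 6 genes listed for the carnitine shuttle, 4 were tested, and 3 passed in the averaged diet effect, all higher, beside 7.49% of all genes: Cpt2, which releases acyl groups from carnitine in the matrix, by 0.61 ± 0.09 (adjusted p = 0.00107), Crat, the short-chain carnitine acetyltransferase, by 0.29 ± 0.06 (adjusted p = 0.00908), and the plasma membrane carnitine transporter Slc22a5 by 0.40 ± 0.12 (adjusted p = 0.0452). The fourth, Cpt1a, the liver form of the enzyme that forms long-chain acylcarnitines, did not pass (0.33 ± 0.17, adjusted p = 0.206). Cpt2 read 9.28, 9.65 and 9.71 in KO HFD, 8.76, 9.07 and 9.03 in KO ND, 9.55, 9.63 and 9.48 in WT HFD, and 9.06, 8.87 and 8.84 in WT ND. Its groups did not overlap in either genotype, and it passed in both, at 0.60 ± 0.13 in KO (adjusted p = 0.0218) and 0.63 ± 0.13 in WT (adjusted p = 0.0141). Crat passed in WT alone, at 0.17 ± 0.09 in KO (adjusted p = 0.313) and 0.41 ± 0.09 in WT (adjusted p = 0.0181); the difference between those effects was -0.24 ± 0.12 (adjusted p = 0.519).

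Of the genes that regulate mitochondrial genes, Ppargc1b, a coactivator of mitochondrial biogenesis, was higher by 0.86 ± 0.16 in the averaged diet effect (adjusted p = 0.00341). The other 8 of 9 did not pass there, beside 7.49% of all genes called higher. Ppargc1b also passed in KO (0.90 ± 0.22, adjusted p = 0.0374) and in WT (0.83 ± 0.22, adjusted p = 0.0411). It was the 1 of 9 called in KO, beside 2.66% of all genes higher. In WT 2 of 9 were called, beside 3.07% higher. Ppargc1a, the related coactivator, read 6.92, 7.35 and 7.78 in KO HFD, 7.60, 7.92 and 7.67 in KO ND, 8.09, 8.41 and 7.78 in WT HFD, and 7.12, 7.04 and 7.52 in WT ND. The KO groups overlapped (-0.38 ± 0.22, adjusted p = 0.362), while all WT HFD mice were above all WT ND mice (0.87 ± 0.22, adjusted p = 0.0354). The difference between those diet effects was -1.25 ± 0.31 (adjusted p = 0.197).

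**Figure D2:**
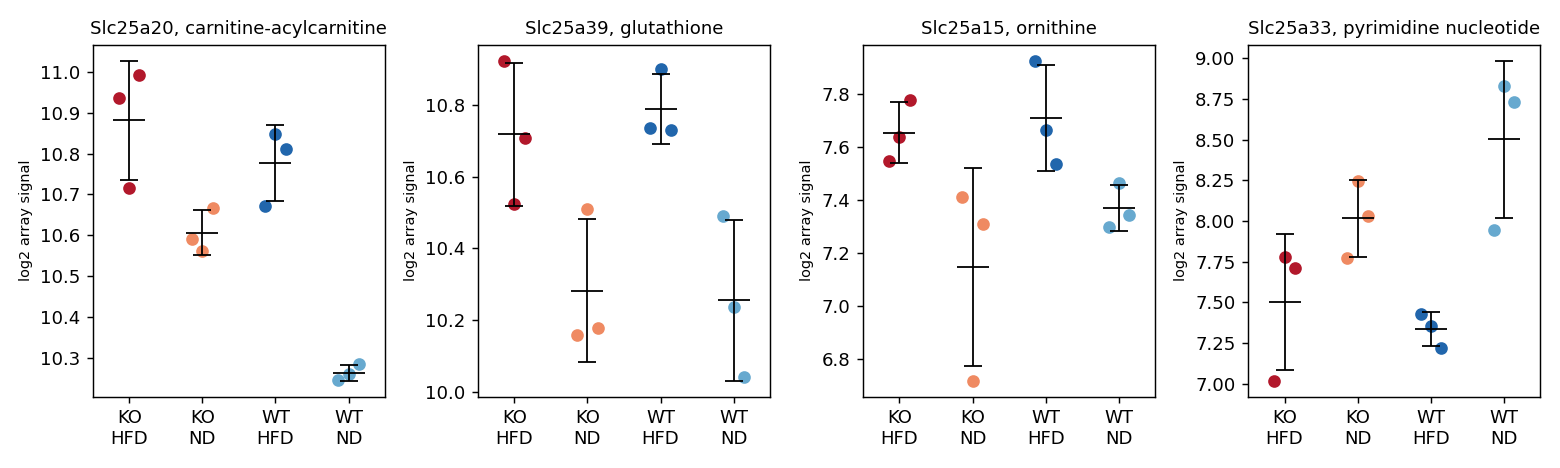
Log2 array signal of each mouse for the 4 members called in the averaged diet effect, with group means (lines) and SD (bars), 3 mice per group. Slc25a20 and Slc25a15 HFD mice lie above the ND mice of their genotype, Slc25a39 likewise, and Slc25a33 HFD mice overlap the ND mice in KO and lie below them in WT.

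Slc25a39 was the other carrier called higher in WT mice; it is required for glutathione in mitochondria. It read 10.92, 10.52 and 10.71 in KO HFD, 10.16, 10.51 and 10.18 in KO ND, 10.73, 10.90 and 10.73 in WT HFD, and 10.49, 10.24 and 10.04 in WT ND. The HFD mice were above the ND mice in each genotype, in KO by a narrow margin between the lowest HFD and the highest ND mouse. The difference was 0.43 ± 0.14 in KO (adjusted p = 0.0851), 0.53 ± 0.14 in WT (adjusted p = 0.0359) and 0.48 ± 0.10 averaged (adjusted p = 0.00579, 1.4-fold). Of its 4 probe sets above the filter, 3 were called in the averaged effect and the dimmest was not (0.28, adjusted p = 0.397). The 3 called are all of the kind whose probes can match other transcripts, and the dimmest is not of that kind. The WT call was lost when any WT HFD mouse, WT ND replicate 2 or 3, or KO HFD replicate 3 was left out, with an adjusted p of 0.139 at most, and the averaged call was kept in each case. Slc25a40, its close relative, was not called in any comparison.

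Slc25a33, a carrier of pyrimidine nucleotides, fell on the high fat diet. It read 7.02, 7.78 and 7.71 in KO HFD, 7.77, 8.24 and 8.03 in KO ND, 7.43, 7.35 and 7.22 in WT HFD, and 7.95, 8.83 and 8.73 in WT ND. In KO the groups overlapped and the difference of -0.51 ± 0.24 did not pass (adjusted p = 0.248). In WT all HFD mice were below all ND mice, with a difference of -1.17 ± 0.24 (adjusted p = 0.0142, a fold of 0.445). The averaged difference was -0.84 ± 0.17 (adjusted p = 0.00598), and the diet effects of KO and WT differed by 0.65 ± 0.34 (adjusted p = 0.516). Without WT ND replicate 2 or 3 the WT call was lost (adjusted p = 0.0688 and 0.0601).

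Slc25a36, the second pyrimidine nucleotide carrier, was called in no comparison. It read 9.19, 9.03 and 8.75 in KO HFD, 9.13, 9.17 and 9.31 in KO ND, 9.10, 9.02 and 9.26 in WT HFD, and 8.83, 8.87 and 8.59 in WT ND. The WT ND mice were low: the diet difference in WT was 0.37 ± 0.13 (adjusted p = 0.103), of opposite sign to that of Slc25a33, and KO exceeded WT on the normal diet by 0.44 ± 0.13 (adjusted p = 0.177). Of the 11 members that carry nucleotides, coenzymes or glutathione, none was called for diet in KO, beside 4.54% of all genes. In WT 1 was called higher and 1 lower, beside 3.07% and 2.99% of all genes. None of the 11 was called for the interaction.

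Among amino acid carriers, Slc25a15, the ornithine carrier of the urea cycle and arginine metabolism, was higher in the averaged diet effect alone. It read 7.55, 7.64 and 7.78 in KO HFD, 7.41, 6.72 and 7.31 in KO ND, 7.93, 7.67 and 7.53 in WT HFD, and 7.30, 7.47 and 7.34 in WT ND. The HFD mice were above the ND mice in each genotype. The averaged difference was 0.42 ± 0.12 (adjusted p = 0.0365, 1.34-fold); it was 0.51 ± 0.17 in KO (adjusted p = 0.113) and 0.34 ± 0.17 in WT (adjusted p = 0.264). The averaged call was lost in 8 of the 12 fits that left out 1 mouse, including each WT ND mouse.

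Slc25a12, the aspartate-glutamate carrier of the malate-aspartate shuttle, gave different answers by its 3 probe sets above the filter. The brightest read 11.08, 11.52 and 11.36 in KO HFD, 11.44, 11.42 and 11.51 in KO ND, 11.49, 11.53 and 11.62 in WT HFD, and 11.44, 11.34 and 11.38 in WT ND. Its averaged diet difference was 0.01 ± 0.07 (adjusted p = 0.918) and its difference in WT 0.16 ± 0.10 (adjusted p = 0.344). The second read 8.30, 8.50 and 8.40 in KO HFD, 8.12, 8.48 and 8.26 in KO ND, 8.37, 8.23 and 8.64 in WT HFD, and 8.06, 7.01 and 7.06 in WT ND. Only WT ND replicates 2 and 3 stood apart there, and with every probe set tested the WT diet difference was 1.04 ± 0.23 (adjusted p = 0.0198). The third and dimmest read 4.66, 4.89 and 5.21 in KO HFD, 4.36, 4.66 and 4.12 in KO ND, 4.84, 4.73 and 4.76 in WT HFD, and 4.38, 4.26 and 4.28 in WT ND. Its difference was not called, at 0.54 ± 0.26 in KO (adjusted p = 0.305), 0.47 ± 0.26 in WT (adjusted p = 0.335) and 0.50 ± 0.19 averaged (adjusted p = 0.101), with the WT groups apart and the KO groups nearly so. The sources used here do not say which part of the transcript each probe set reads.

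Of the 6 enzymes of the malate-aspartate and glycerol phosphate shuttles, 1 was called higher for diet in WT, beside 3.07% of all genes. This was Got2, the mitochondrial aspartate aminotransferase (0.32 ± 0.09, adjusted p = 0.0465). In KO the Got2 difference was 0.01 ± 0.09 (adjusted p = 0.971), and its diet effects in KO and WT differed by -0.31 ± 0.12 (adjusted p = 0.392). The cytosolic Got1 was lower in the averaged effect (-0.30 ± 0.09, adjusted p = 0.0336), beside 6.19% of all genes. Mdh1, Mdh2, Gpd1 and Gpd2 were called in no diet comparison. Slc25a11, the oxoglutarate-malate carrier of the shuttle, read 9.74, 9.72 and 9.71 in KO HFD, 9.56, 9.33 and 9.60 in KO ND, 9.45, 9.71 and 9.86 in WT HFD, and 9.65, 9.63 and 9.43 in WT ND. The KO HFD mice were nearly equal and above the KO ND mice (0.23 ± 0.12, adjusted p = 0.299), while the WT groups overlapped (0.10 ± 0.12, adjusted p = 0.657).

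None of the 6 tested ADP/ATP and phosphate carriers was called for diet. Their within-group SD ran from 0.069 for Slc25a4 to 0.543 for Slc25a25, a calcium-dependent carrier of ATP-magnesium and phosphate. Slc25a4, the muscle and heart ADP/ATP carrier, had the smallest such SD of the 38 members. It read 13.59, 13.62 and 13.63 in KO HFD, 13.54, 13.64 and 13.49 in KO ND, 13.62, 13.80 and 13.80 in WT HFD, and 13.55, 13.46 and 13.55 in WT ND. The WT HFD mice were above the WT ND mice by 0.22 ± 0.07 (adjusted p = 0.0662), and the averaged difference was 0.14 ± 0.05 (adjusted p = 0.069).

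Slc25a3 read 13.11, 13.09 and 13.19 in KO HFD, 13.00, 13.23 and 12.97 in KO ND, 13.10, 13.22 and 13.35 in WT HFD, and 13.12, 13.03 and 13.05 in WT ND. Its groups overlapped in every simple comparison, and the 95% interval of the averaged diet difference ran from -0.01 to 0.23. Signals this bright can be compressed on arrays, so a small difference in signal is not a bound on the difference in RNA. None of 7 partner genes for ADP, phosphate and creatine handling, among them Vdac1, Ckmt2 and Atp5b, was called by limma, with 4 at an unadjusted p under 0.05 in the averaged diet effect.

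Slc25a10 was the only member called in a genotype comparison and the only one called for diet in KO mice. It is the dicarboxylate carrier, which exchanges malate or succinate for phosphate and is abundant in white fat. It read 6.53, 6.55 and 6.36 in KO HFD, 5.65, 5.74 and 5.70 in KO ND, 5.35, 5.57 and 5.62 in WT HFD, and 5.85, 6.04 and 5.44 in WT ND. The 3 KO HFD mice were above all 9 others.

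On the high fat diet KO exceeded WT by 0.97 ± 0.18 (adjusted p = 0.032, 1.95-fold), where 1 of 38 members was called, beside 0.732% of all genes (0.511% higher). In KO mice the diet difference was 0.79 ± 0.18 (adjusted p = 0.0305, 1.72-fold), and in WT it was -0.26 ± 0.18 (adjusted p = 0.42). The test of the difference between those diet effects gave 1.05 ± 0.26 and did not pass after adjustment (adjusted p = 0.189), and 0.141% of all genes passed it. The gene's other probe set averaged 2.46, under the filter, and carries no test. The call on the high fat diet was lost with no filter on signal, without the intensity trend, with only the groups compared, and when any KO HFD mouse, WT HFD replicate 1 or WT HFD replicate 3 was left out (adjusted p up to 0.161). The diet call in KO was lost when any of the 6 KO mice was left out (adjusted p up to 0.0934).

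The mean of the fat cell markers was also highest in the KO HFD mice, though not every marker was. Of 8 listed adipocyte markers, 6 were on the array and all passed the filter (Adipoq, Lep, Cidec, Retn, Fabp4 and Car3). Their mean log2 signal was 10.39 to 10.74 in KO HFD, 8.71 to 9.91 in KO ND, 8.89 to 10.17 in WT HFD and 8.81 to 9.35 in WT ND, and the log2 of their summed signal was 14.83 to 14.87, 14.31 to 14.59, 14.44 to 14.85 and 14.35 to 14.47 in the same order. Between KO and WT on the high fat diet none of the 6 passed in limma, and 5 had an unadjusted p under 0.05. KO HFD minus WT HFD was 1.41 ± 0.55 for Adipoq (adjusted p = 0.257) and 1.92 ± 0.62 for Cidec (adjusted p = 0.155). Adipoq, Lep and Cidec had at least 2 KO HFD mice above every other mouse. Car3 went the other way, at 13.64, 13.70 and 13.73 in KO HFD and 13.74, 13.79 and 13.85 in WT HFD (-0.10 ± 0.07, adjusted p = 0.53). For Fabp4, WT HFD replicate 2 (13.49) was above 2 of the KO HFD mice, and for Retn, WT ND replicate 2 (7.80) was.

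The log2 of the summed signal of 6 macrophage markers was 11.69 to 12.49 in KO HFD, 11.11 to 11.58 in KO ND, 10.78 to 11.85 in WT HFD and 11.59 to 11.76 in WT ND. Cd68 was higher in KO than in WT on the high fat diet by 2.10 ± 0.39 (adjusted p = 0.0311), the 1 called of the 6, beside 0.511% of all genes. For diet in KO, 2 of the 6 macrophage markers were called higher, Adgre1 by 1.11 ± 0.14 (adjusted p = 0.00197) and Lyz2 by 1.07 ± 0.26 (adjusted p = 0.0351). So was 1 of the 6 adipocyte markers, Fabp4, by 0.53 ± 0.14 (adjusted p = 0.0493), beside 2.66% of all genes. On the normal diet all 6 macrophage markers were lower in KO than in WT. None was called there, beside 0.414% of all genes called, and 4 had an unadjusted p under 0.05 in limma. For 3 of the 6, all KO mice were below all WT mice, beside 7.72% of all genes. In WT, 5 of the 6 were lower on the high fat diet and none was called. The part of fat or macrophage RNA in the Slc25a10 result was not tested.

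**Figure D3:**
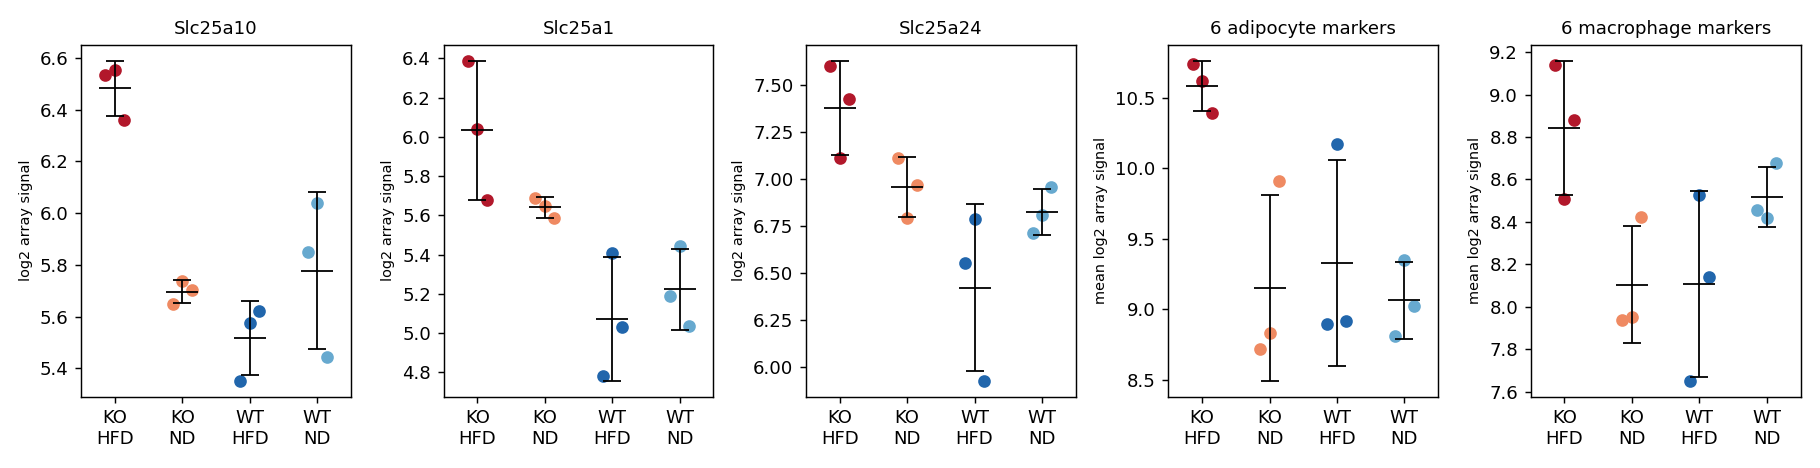
Log2 signal of each mouse for Slc25a10, Slc25a1 and Slc25a24 and the mean log2 signal of 6 adipocyte and 6 macrophage markers, with group means (lines) and SD (bars), 3 mice per group. The KO HFD mice are the highest 3 in Slc25a10 (6.36 to 6.55) and in the mean of the adipocyte markers (10.39 to 10.74).

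No other member passed between KO and WT on the high fat diet, but a pair came close. Slc25a24, a calcium-dependent carrier of ATP-magnesium and phosphate, read 7.60, 7.11 and 7.43 in KO HFD, 7.11, 6.79 and 6.97 in KO ND, 6.55, 6.79 and 5.93 in WT HFD, and 6.71, 6.81 and 6.96 in WT ND. All KO HFD mice were above all WT HFD mice (0.96 ± 0.21, adjusted p = 0.0528). Slc25a1, the citrate carrier that exports citrate for fatty acid and sterol synthesis, read 6.39, 6.04 and 5.68 in KO HFD, 5.69, 5.65 and 5.58 in KO ND, 4.78, 5.41 and 5.03 in WT HFD, and 5.19, 5.45 and 5.04 in WT ND. KO mice were above WT mice on each diet without overlap, by 0.96 ± 0.23 on the high fat diet (adjusted p = 0.0685), 0.42 ± 0.23 on the normal diet (adjusted p = 0.546) and 0.69 ± 0.16 averaged (adjusted p = 0.0557). Without WT HFD replicate 2, both Slc25a24 and Slc25a1 passed on the high fat diet and in the averaged genotype effect. The called genes over the whole array rose there to 237 and 287, from 83 and 183.

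On the normal diet no member was called between KO and WT by limma, beside 0.414% of all genes, and 4 of 38 had an unadjusted p under 0.05. In the averaged genotype effect the count was also 0, beside 1.61% of all genes, with 9 under that unadjusted p. For the interaction it was 0, beside 0.141% of all genes, with 3. These shares of all genes are at the adjusted p. Shares at the unadjusted p are not given here, so the unadjusted counts cannot be set against the array. On the high fat diet 4 members had all 3 KO mice above all 3 WT mice and 1 had them below, beside 19.4% of all genes without overlap (11% above and 8.39% below). On the normal diet the counts were 6 and 1, beside 17% (9.25% above and 7.72% below). The median genotype difference over the 38 members was -0.05 on the high fat diet and 0.02 on the normal diet, against 0.03 and 0.02 over all genes. The 95% intervals lay within 1 log2 unit of zero for 29 members on the high fat diet and 31 on the normal diet. These are intervals of the signal, not bounds on the difference in RNA.

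**Figure D4:**
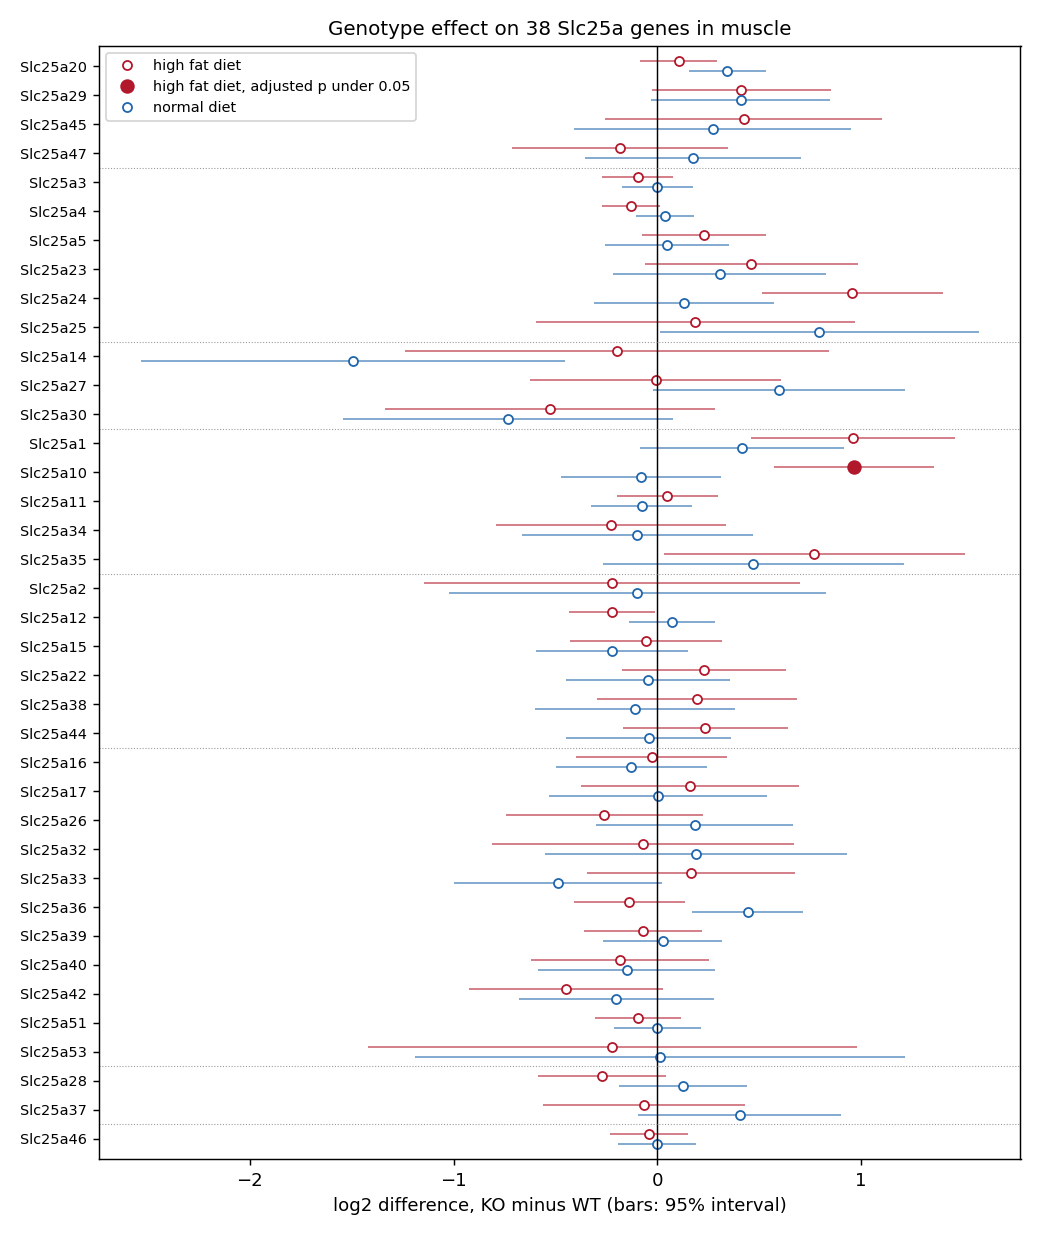
Log2 difference KO minus WT with its 95% confidence interval for the 38 tested Slc25a members, on the high fat diet and on the normal diet (linear model over 12 arrays, 3 mice per group). Slc25a10 on the high fat diet (0.97) is the only value with an adjusted p under 0.05.

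The uncoupling-protein-like carriers Slc25a14, Slc25a27 and Slc25a30 had wide intervals and no call. Slc25a14 read 4.75, 3.47 and 4.38 in KO HFD, 1.92, 2.22 and 3.5 in KO ND, 4.41, 4.33 and 4.45 in WT HFD, and 4.25, 3.89 and 3.98 in WT ND. All 3 KO ND mice lay under the filter's level of 3.78, so no size is given for a difference against them, and no comparison of the gene passed. Slc25a30 differed by -0.63 ± 0.27 between genotypes averaged over diets (adjusted p = 0.272). Its dimmer probe sets above the filter differed the same way, by -0.93 and -1.36. The probe set with -1.36 held a very low value of 0.87 in KO HFD replicate 3. Ucp3, the muscle uncoupling protein of the same family under another name, differed by -0.15 ± 0.11 in the averaged diet effect (adjusted p = 0.405), and Mtch1, Mtch2 and Mpc1 were not called either.

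Of the iron carriers, Slc25a28 (a mitoferrin) read 8.11, 8.22 and 8.28 in KO HFD, 8.54, 8.94 and 8.52 in KO ND, 8.25, 8.40 and 8.77 in WT HFD, and 8.50, 8.65 and 8.48 in WT ND. The KO HFD mice were below the KO ND mice (-0.47 ± 0.15, adjusted p = 0.0885), and the WT groups overlapped. Slc25a37 was not called. The other di- and tricarboxylate class members, Slc25a34 and Slc25a35, of unassigned substrate, were not called. Slc25a46, which sits in the outer membrane, differed by 0.04 ± 0.06 in the averaged diet effect, with a 95% interval of -0.09 to 0.18.

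Of 8 listed genes of mitochondrial protein import, not all of them particular to carriers, 2 were called for diet. Timm10 was lower in KO HFD than in KO ND (-0.57 ± 0.15, adjusted p = 0.0499), beside 1.88% of all genes called lower. It was also lower in the averaged diet effect (-0.37 ± 0.11, adjusted p = 0.0354), beside 6.19% of all genes. Timm22 was higher in the averaged effect (0.27 ± 0.08, adjusted p = 0.0379), beside 7.49% of all genes called higher. The small TIM protein Timm10 escorts carriers across the intermembrane space, and Timm22 is the insertion channel.

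A measure of RNA quality and a fibre-type marker set were higher on average in HFD arrays, but neither passed after adjustment. The log2 ratio of the 3′ to 5′ control probe sets of Actb and Gapdh averaged 0.17 in HFD arrays and 0.03 in ND arrays, with ranges of 0.02 to 0.28 and -0.08 to 0.12 (two-sided exact permutation p = 0.0216, adjusted over 3 such tests 0.0649). The mean of 7 slow muscle markers was 11.58 in HFD arrays and 11.31 in ND arrays (exact permutation p = 0.0693, adjusted 0.0693), and that of the adipocyte markers 9.95 and 9.11 (exact permutation p = 0.0519, adjusted 0.0693). With that ratio as a covariate, no member was called in WT or in KO for diet, and Slc25a20 alone was called in the averaged diet effect (adjusted p = 0.0266). Over all genes 186 were then called in WT, 265 in KO and 522 in the averaged effect, against 687, 515 and 1552 without the covariate. By group the slow muscle mean was 11.52 to 11.87 in KO HFD, 11.45 to 11.61 in KO ND, 11.39 to 11.59 in WT HFD and 10.88 to 11.23 in WT ND. For diet none of the 7 was called in KO (1 at an unadjusted p under 0.05). In WT 3 were called higher (Tnnc1, Myl2 and Myl3, beside 3.07% of all genes). The averaged effect called 1 higher (Tnnc1), beside 7.49% of all genes. Between genotypes 3 were higher in KO averaged over diets (Myh7, Myl2 and Myl3, beside 1.61% of all genes called). On the normal diet 1 was called higher in KO (Myl3 by 0.73 ± 0.14, adjusted p = 0.037), beside 0.414% of all genes called. There 6 of the 7 had all KO mice above all WT mice, beside 9.25% of all genes. Of 5 endothelial markers, Kdr was called higher in WT on the high fat diet, beside 3.07% of all genes. In that comparison 3 of the 5 were positive and 2 negative (-0.53 to 1.24), with 4 at an unadjusted p under 0.05 in limma. In the averaged diet effect 2 endothelial markers were called higher, beside 7.49% of all genes. Of 3 tested brown adipocyte markers, Cidea and Ppargc1a were called higher on the high fat diet in WT, beside 3.07% of all genes. Ppargc1a is also among the regulators of mitochondrial genes above, so it does not mark brown fat alone, and Ucp1 was under the filter. Of the erythroid markers 1 passed the filter and was not called. The part of RNA quality or fibre type in the diet results was not tested.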

How the data were processed

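Total RNA was biotin-labelled and hybridised to 12 one-colour Affymetrix arrays, 3 per group, per the labels. The deposited values are log2 signals from MAS5, per the submitters' processing notes, with no version given, and were used as deposited. Of 45101 probe sets, 64 controls were removed, and those with a single symbol and a mean above the median of 3.78 (13.8 on the linear scale) were kept. The brightest stood for its gene.

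One linear model was fitted in limma 3.58.1 (R 4.3.3) with eBayes and an intensity trend, for 7 contrasts: diet in each genotype, genotype on each diet, each averaged, and the interaction. Benjamini-Hochberg adjustment ran over all genes of a contrast, at 0.05. The code was tested on simulated data. Figures used Python 3.11.15, pandas 2.3.3, numpy 2.4.6 and matplotlib 3.10.9. The number of arrays limits the precision.

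The members and lists were chosen with earlier results of these data known. Values of every mouse are given for called members and for Slc25a20, Slc25a4, Slc25a3, Slc25a12, Slc25a11 and Slc25a1. Those of Slc25a24, Slc25a14, Slc25a28, Slc25a36, Cpt2 and Ppargc1a were added after they were seen. Other members were named by smallest p, at most 3 per class, and partners where called. Alternatives were 2 other filters, an offset, quantile or median scaling, averaged probe sets, no trend, array weights, a covariate for the 3′ to 5′ ratio, fits of the compared groups, each mouse left out, and, chosen after seeing the data, every probe set tested.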

Additional observations from a re-analysis of the deposited data

How the results depend on the processing

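No paired analysis was possible because the mouse numbers differ between all groups. Of the 9 calls of named members, 0 changed direction under any alternative and 1, Slc25a20 in the averaged diet effect, was called under all of them (adjusted p up to 0.0266). With the 3′ to 5′ ratio as a covariate, 0 of 38 members were called for diet in KO (against 1) and 0 for diet in WT (against 3). In the averaged diet effect 1 was called (against 4), and between genotypes on the high fat diet 2 were (against 1, adding Slc25a1). The counts over all 11345 genes were 265 (against 515), 186 (against 687), 522 (against 1552) and 95 (against 83) in the same order. The cause was not tested.

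For diet in KO the count was 0 with no filter on signal, and 2 with averaged probe sets (adding Slc25a39) or array weights (adding Slc25a20). Between genotypes on the high fat diet it was 0 with no filter, with no intensity trend or with only the groups compared, and 2 with the filter at the 60th percentile or with an offset, both adding Slc25a24. Leaving out each mouse gave 0 to 1 for diet in KO (0 without KO HFD replicate 1 or 3 or KO ND replicate 1 or 2), 1 to 3 for diet in WT (1 without WT ND replicate 2 or 3), 3 to 5 in the averaged diet effect, 0 to 3 between genotypes on the high fat diet (3 without WT HFD replicate 2, 0 without KO HFD or WT HFD replicate 1 or 3) and 0 to 2 in the averaged genotype effect (2 without WT HFD replicate 2, 1 without KO HFD replicate 2 or 3). The genotype effect on the normal diet and the interaction stayed at 0 throughout. Counts over all genes moved too. For diet in KO, 515 became 365 with no filter, 459 with averaged probe sets and 881 with array weights, and 133 without KO ND replicate 2. For diet in WT, 687 became 199 and 256 without WT ND replicate 2 and 3. Between genotypes on the high fat diet, 83 became 69 with no filter, 7 with no intensity trend and 237 without WT HFD replicate 2.

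Of single calls, Slc25a39 in WT was lost in 10 of 23 alternatives, Slc25a10 in 8 of 23 in each of its comparisons and Slc25a15 in 10 of 22. Slc25a33 in WT was lost in 3 of 23, with the covariate and without WT ND replicate 2 or 3. Averaging probe sets or testing each one added Slc25a12 in WT and in the averaged diet effect. Over all genes, the share of called genes that were higher was 39.3% with median centring, against 69.9% as deposited, between genotypes on the high fat diet, and 45.5% against 58.6% for diet in KO. Slc25a10 was called in each.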
